A study of Mus musculus with 6 samples.

Results

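Transcripts that are typical of neurones were followed in microglia sorted from the lumbar spinal cord of SOD1 G93A mice and of WT littermates. The list holds 32 genes, chosen by name and with earlier results of these data known. Of these, 10 are of the axon and cytoskeleton, 10 of the synapse and of transmitters, and 12 have other roles in neurones. All 32 have a probe set on the array that maps to that gene alone, out of 18193 genes measured in the series. Where several probe sets map to a gene, the brightest over the 6 arrays stood for it, and the others are given beside it.

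SOD1 G93A mice carry many copies of the human *SOD1* gene with a mutation of familial amyotrophic lateral sclerosis (ALS), in which motoneurones degenerate. The transgene is present in all cells of these mice, and not in neurones or microglia alone. Both groups were males of a B6SJL background at postnatal day 90, matched by litter, when the transgenic mice are at an early symptomatic age. There were 3 arrays of SOD1 G93A and 3 of WT microglia, and each array held RNA from a pool of CD11b-positive cells of at least 6 mice, so that a replicate is a pool.

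Neurones keep their shape with neurofilaments and microtubules, along which kinesin motors carry cargo down the axon. At the synapse, vesicles loaded with transmitter fuse through SNARE proteins when calcium enters. Microglia do not build axons or synapses, but they engulf debris of neurones and prune synapses, and a sorted fraction can carry fragments or RNA of other cells. Neurofilament light chain leaves injured axons and is measured in blood and cerebrospinal fluid of patients with ALS.

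The sort was checked with markers of microglia, not all of which were alike between the genotypes (the others are given further below). *Itgam*, which encodes CD11b, had a log2 signal of 8.71 ± 0.04 in SOD1 G93A and 8.73 ± 0.30 in WT (SD, n = 3 each). *P2ry12*, a purine receptor gene of microglia, had 11.37 ± 0.22 and 11.66 ± 0.20 (SD, n = 3 each). The arrays had like medians, between 5.93 and 5.97 on the log2 scale. The second principal component, with 28.0% of the variance, held the 2 arrays numbered 1 at one end and the other arrays at the opposite end. Arrays have no counting depth and no detection calls were at hand, so 71 olfactory and vomeronasal receptor genes, which spinal cord cells should lack, were taken as a reference for background. Their mean log2 signals had a median of 4.06 and a 95th percentile of 5.80. Probe sets differ in how strongly they bind, so a signal near that reference shows only that the probe set reads close to background.

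The genotypes were set against each other with limma, whose variance for each probe set borrows from the rest of the array, and Benjamini-Hochberg adjustment ran over the 18193 genes. At an adjusted p under 0.05, 14 of the 32 neuronal transcripts were lower in SOD1 G93A microglia and 1 was higher, where 2.53% of all genes were lower and 4.09% higher. The members were chosen with earlier results of these data known, so this contrast with all genes is a description and not a test. The 14 were *Nefl*, *Nefm*, *Nefh*, *Map2*, *Stmn3*, *Kif5a*, *Kif5c*, *Ctnnd2*, *Elavl3*, *Celf4*, *Vsnl1*, *Mapk10*, *Prkar2b* and *Gnai1*, and the 1 was *Eno2*. The median log2 fold change of the 32 (SOD1 G93A minus WT) was -0.38, and that of all genes was 0.022. Every SOD1 G93A array lay below every WT array for 19 of the 32, as for 10.9% of all genes, and above for 2, as for 16.6% of all genes. Of the axonal and cytoskeletal members 7 of 10 fell, with a median of -0.95. Of the synaptic and transmitter members 1 of 10 fell, with a median of -0.097. Of the others 6 of 12 fell and 1 rose, with a median of -0.49. At an unadjusted p under 0.05, 17 members were lower, beside 8.86% of all genes. At the thresholds of the study's methods, a fold change and an unadjusted p by the methods' t-test, 12 members were lower, beside 0.934% of all genes. The study's present calls and its pair-wise comparisons of arrays were not applied here, so this is a part of its selection. Whether the 3 groups of members differ from each other was not tested. Which cells the transcripts came from was not tested. In bulk RNA of sorted cells, fewer neuronal fragments, less neuronal RNA per fragment, and less RNA from microglia or other cells cannot be told apart.

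**Figure D1:**
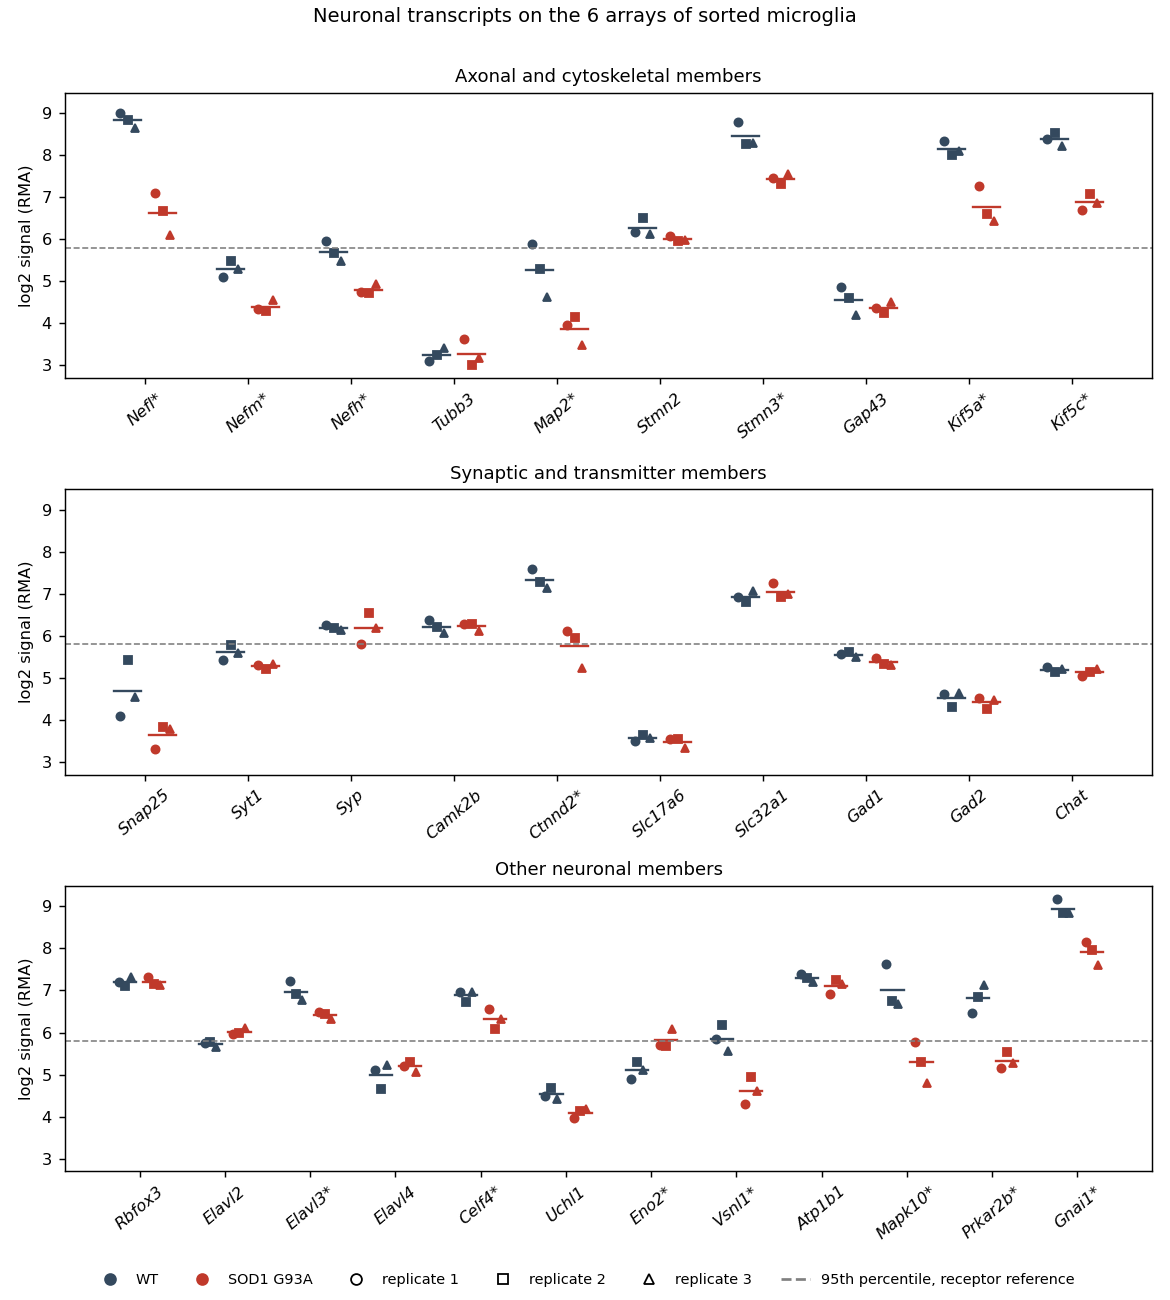
Log2 signal of the 32 neuronal transcripts on each array, in 3 panels by role, with WT in dark blue and SOD1 G93A in red, a bar for the mean of 3 arrays and a marker shape for each replicate number. An asterisk marks an adjusted p under 0.05 from limma, and the dashed line is the 95th percentile (5.80) of 71 receptor genes taken as background. The axonal panel holds 7 asterisks and the synaptic panel 1.

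*Nefl*, which encodes the light chain of neurofilaments, had log2 signals of 8.99, 8.84 and 8.65 on the WT arrays and 7.09, 6.68 and 6.10 on the SOD1 G93A arrays (replicates 1, 2 and 3 in each list of values here and below). It was 4.61-fold lower in SOD1 G93A (log2 fold change -2.20, standard error 0.22, adjusted p = 0.00186 by limma), and the gap between the genotypes was wider than the range within either. Its second probe set, read at 8.18, 8.33 and 7.61 in WT and 6.52, 6.52 and 6.18 in SOD1 G93A, fell too, by 1.64 on the log2 scale (adjusted p = 0.00408 over all probe sets). Both probe sets read above the background reference on all 6 arrays.

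The partners of *Nefl* in the same filament fell as well, at signals near background. *Nefm*, the medium chain, was at 5.11, 5.49 and 5.29 in WT and 4.34, 4.30 and 4.57 in SOD1 G93A, or -0.90 as a log2 difference (standard error 0.13, adjusted p = 0.00745). *Nefh*, the heavy chain, was at 5.95, 5.68 and 5.48 in WT and 4.74, 4.72 and 4.94 in SOD1 G93A, also -0.90 (standard error 0.14, adjusted p = 0.00918). The order among the 3 SOD1 G93A arrays was not shared by the 3 chains: replicate 3 was the lowest for *Nefl* and the highest for *Nefm* and *Nefh*.

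*Kif5c* and *Kif5a* encode heavy chains of kinesin-1, the motor of fast axonal transport. *Kif5c* was at 8.38, 8.53 and 8.21 in WT and 6.69, 7.08 and 6.86 in SOD1 G93A (2.83-fold lower, -1.50 on the log2 scale, standard error 0.14, adjusted p = 0.00124). Its adjusted p was the lowest of the 32 genes. A second probe set of *Kif5c* had -1.25 (adjusted p = 0.00289 over all probe sets), while the 2 dimmest did not pass. *Kif5a*, in which mutations cause familial ALS, was at 8.33, 8.01 and 8.10 in WT and 7.27, 6.60 and 6.44 in SOD1 G93A (2.60-fold lower, -1.38, standard error 0.21, adjusted p = 0.00762). The 2 other probe sets of *Kif5a* had 0.013 and 0.091 and did not pass, and with the mean of its 3 probe sets *Kif5a* did not pass (-0.42, adjusted p = 0.0848).

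Genes that act on microtubules did not all move alike. *Stmn3*, a stathmin that destabilises microtubules, was at 8.79, 8.26 and 8.28 in WT and 7.45, 7.32 and 7.55 in SOD1 G93A (-1.01, standard error 0.16, adjusted p = 0.00918). The probe set carries the suffix x_at, given by the maker to sets that may bind other transcripts, and the other probe set of *Stmn3* had -0.33 and did not pass. *Map2*, of dendritic microtubules, was at 5.89, 5.29 and 4.62 in WT and 3.97, 4.15 and 3.48 in SOD1 G93A (-1.40, standard error 0.30, adjusted p = 0.0281). The WT arrays spread widely, with replicate 3 the nearest to the SOD1 G93A arrays. The mean of *Map2* over the 6 arrays, 4.56, lay below the background reference. The 3 other probe sets of *Map2* had -0.12, -0.12 and 0.11 and did not pass. The adjusted p of *Map2* was 0.0676 without SOD1 G93A replicate 2, 0.11 without SOD1 G93A replicate 3 and 0.0851 without WT replicate 2, and the mean of its 4 probe sets did not pass either (-0.38, adjusted p = 0.0869).

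*Tubb3*, the beta-tubulin of neurones, read 3.10, 3.24 and 3.42 in WT and 3.62, 3.01 and 3.19 in SOD1 G93A, with all values below the background reference. Its log2 fold change was 0.021 (95% interval -0.36 to 0.40). *Gap43*, of growth cones, likewise lay below the reference and had -0.18 (95% interval -0.56 to 0.20). *Stmn2*, a stathmin of regenerating axons, was at 6.16, 6.51 and 6.12 in WT and 6.08, 5.95 and 5.99 in SOD1 G93A, and did not pass (-0.26, adjusted p = 0.287). The genotypes did not overlap for *Stmn2*, and its second, dimmer probe set passed with -0.91 (adjusted p = 0.0393 over all probe sets), at 5.56, 4.79 and 4.93 in WT and 4.39, 4.15 and 4.02 in SOD1 G93A.

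**Figure D2:**
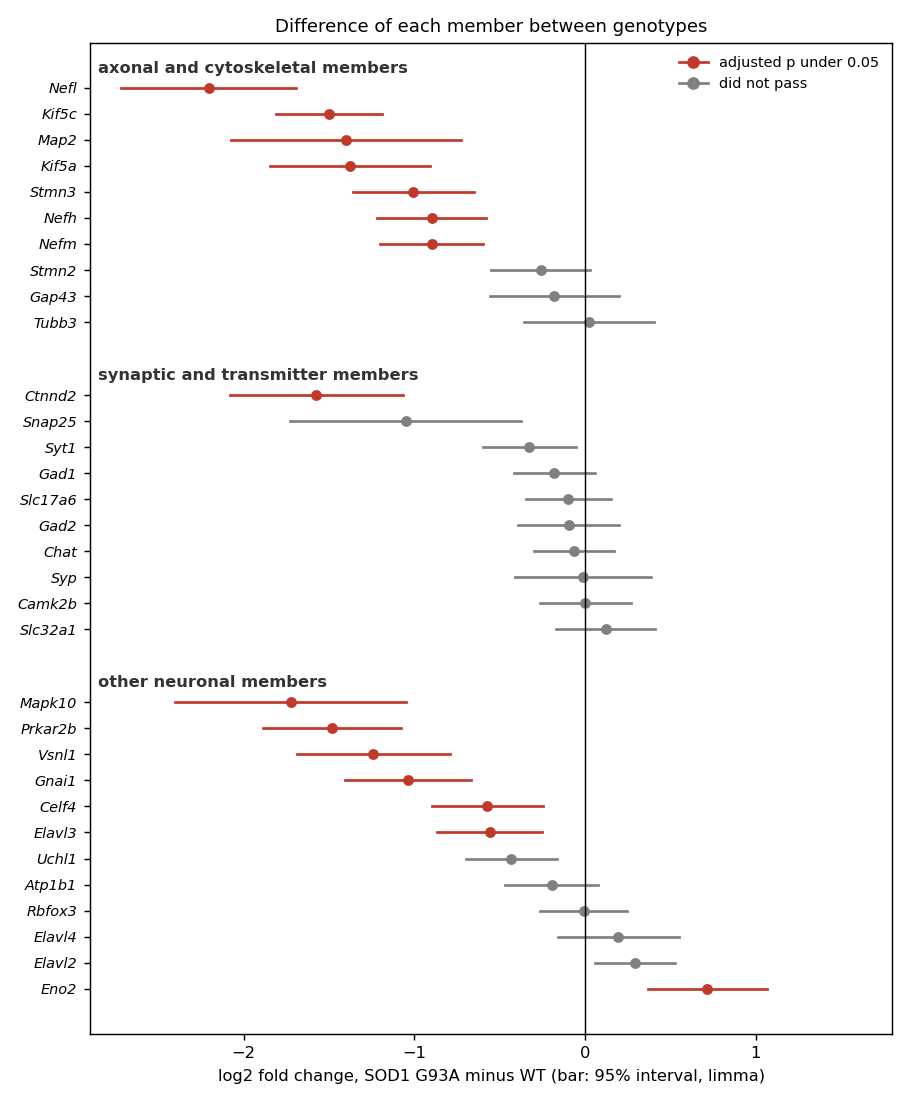
Log2 fold change (SOD1 G93A minus WT) of each member by its probe set of highest mean signal, sorted within the 3 roles. The bar is the 95% interval from limma, unadjusted, and red marks an adjusted p under 0.05. *Nefl* lies farthest to the left at -2.20 and *Eno2* is the red point right of 0, at 0.72.

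Among the 10 genes of the synapse and transmitters, *Ctnnd2* alone fell. It encodes delta-catenin, a junction protein of dendrites and spines. *Ctnnd2* was at 7.58, 7.28 and 7.14 in WT and 6.11, 5.94 and 5.23 in SOD1 G93A (log2 fold change -1.57, standard error 0.22, adjusted p = 0.00625). Its SOD1 G93A mean, 5.76, lay just below the background reference, so no fold is given. The second probe set of *Ctnnd2* had -0.49 without overlap of the genotypes, and missed the threshold over all probe sets (adjusted p = 0.0521).

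*Snap25*, a SNARE protein of vesicle release, was at 4.11, 5.43 and 4.56 in WT and 3.32, 3.83 and 3.79 in SOD1 G93A, all below the background reference (-1.05, standard error 0.30, adjusted p = 0.0737). The genotypes did not overlap, but the WT arrays were far apart, with replicate 1 the lowest. The difference in *Snap25* passed without both arrays numbered 1 (-1.18, adjusted p = 0.00979). *Syt1*, the calcium sensor of release, was at 5.44, 5.79 and 5.59 in WT and 5.32, 5.21 and 5.32 in SOD1 G93A, also below the reference (-0.33, adjusted p = 0.153). *Syp*, a protein of the vesicle membrane, had -0.014 (95% interval -0.41 to 0.38), and *Camk2b*, a calcium-dependent kinase of synapses, had 0.0018 (95% interval -0.26 to 0.27).

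Genes that set the transmitter of a neurone gave no difference past the threshold. *Slc32a1*, the vesicular transporter of GABA and glycine, was the brightest of them, at 6.92, 6.81 and 7.07 in WT and 7.25, 6.92 and 6.99 in SOD1 G93A (0.12, 95% interval -0.17 to 0.41). Its 3 other probe sets lay between -0.22 and 0.064 and did not pass. *Gad1* and *Gad2*, the enzymes that make GABA, had -0.18 (95% interval -0.42 to 0.06) and -0.097 (95% interval -0.39 to 0.20). *Slc17a6*, the vesicular glutamate transporter VGLUT2, had -0.097 (95% interval -0.35 to 0.15), and *Chat*, the acetylcholine enzyme by which motoneurones are recognised, had -0.064 (95% interval -0.30 to 0.17). The signals of *Gad1*, *Gad2*, *Slc17a6* and *Chat* lay below the background reference on all 6 arrays, so a change in these transcripts may not be detectable with these probe sets.

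Of the RNA-binding proteins of neurones, *Elavl3* and *Celf4* fell by small amounts. *Elavl3*, a Hu protein that stabilises neuronal transcripts, was at 7.22, 6.93 and 6.77 in WT and 6.48, 6.44 and 6.32 in SOD1 G93A (-0.56, standard error 0.13, adjusted p = 0.0435). *Celf4*, which regulates splicing and translation, was at 6.96, 6.73 and 6.95 in WT and 6.55, 6.07 and 6.31 in SOD1 G93A (-0.57, standard error 0.14, adjusted p = 0.0488). Both calls lay close to the threshold. The 2 other probe sets of *Elavl3* had -0.63 and 0.24 and did not pass. In the set with 0.24 every SOD1 G93A array lay above every WT array. Of the 2 other sets of *Celf4*, the brighter passed with -0.86 (adjusted p = 0.0136 over all probe sets). The dimmer had -0.69 and did not pass. *Elavl3* did not pass in any of the 6 fits that left out 1 array (adjusted p up to 0.156), and *Celf4* passed in 1 of the 6 (adjusted p up to 0.154).

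*Rbfox3*, which encodes the nuclear antigen NeuN, differed by probe set. The set of highest mean signal read 7.21, 7.10 and 7.31 in WT and 7.32, 7.15 and 7.12 in SOD1 G93A (-0.0079, adjusted p = 0.98). Its second set read 7.58, 7.41 and 7.35 in WT and 6.71, 6.77 and 6.60 in SOD1 G93A, so that this set fell (-0.75, adjusted p = 0.0100 over all probe sets). In WT the second set was the brighter of the pair, so the choice by mean over all arrays decided which of them stood for the gene.

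*Elavl2* differed by probe set too. Its set of highest signal was at 5.76, 5.77 and 5.65 in WT and 5.96, 6.00 and 6.10 in SOD1 G93A (0.29, adjusted p = 0.135), while its 2 dimmest sets passed with -1.05 and -0.89 (over all probe sets, adjusted p = 0.00748 and 0.0125). Both of those lay below the background reference on all arrays. *Elavl4*, a further Hu protein, had 0.20 (95% interval -0.16 to 0.55) at signals below the reference.

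*Mapk10*, the neuronal stress kinase JNK3, was at 7.63, 6.75 and 6.67 in WT and 5.79, 5.30 and 4.80 in SOD1 G93A (-1.72, standard error 0.30, adjusted p = 0.0134). Its probe set carries the suffix x_at, and the 2 other sets, which read below 5, had -0.15 and 0.35 and did not pass. In the set with 0.35 every SOD1 G93A array lay above every WT array. *Prkar2b*, a regulatory subunit of protein kinase A, was at 6.46, 6.85 and 7.12 in WT and 5.16, 5.54 and 5.29 in SOD1 G93A (-1.48, standard error 0.18, adjusted p = 0.00327). It was the only one of the 14 lower genes with its highest WT signal on replicate 3. The 2 other probe sets of *Prkar2b* had -0.55 and -0.54, with overlap of the genotypes, and did not pass. The SOD1 G93A signals of *Mapk10* and *Prkar2b* given here all lay below the background reference.

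*Vsnl1*, a calcium sensor, was at 5.85, 6.17 and 5.56 in WT and 4.30, 4.94 and 4.61 in SOD1 G93A (-1.24, standard error 0.20, adjusted p = 0.0096). The mean of *Vsnl1* over the 6 arrays, 5.24, lay below the background reference. Its second probe set had -0.19, with overlap of the genotypes, and did not pass. *Gnai1*, an inhibitory G protein subunit that many cell types make, was at 9.17, 8.83 and 8.84 in WT and 8.16, 7.96 and 7.61 in SOD1 G93A (-1.04, standard error 0.16, adjusted p = 0.00943). *Gnai1* and *Nefl* had the highest WT means of the members, and a second probe set of *Gnai1* passed with -0.58 (adjusted p = 0.0423 over all probe sets). The remaining set of *Gnai1* had -0.33, with overlap of the genotypes, and did not pass. The set of highest signal carries a suffix, s_at.

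*Eno2* went the other way. It encodes neurone-specific enolase, a glycolytic enzyme, and was at 4.90, 5.31 and 5.10 in WT and 5.70, 5.68 and 6.08 in SOD1 G93A (log2 fold change 0.72, standard error 0.15, adjusted p = 0.0283). The WT signals of *Eno2* lie below the background reference, so no fold is given. Those of SOD1 G93A replicates 1 and 2, and the mean over the 6 arrays, 5.46, lie below it too. Its only probe set carries the suffix a_at. Without 1 array *Eno2* passed in 2 of 6 fits, with an adjusted p of up to 0.0977. *Uchl1*, a ubiquitin hydrolase of neurones, was at 4.49, 4.68 and 4.42 in WT and 3.97, 4.15 and 4.18 in SOD1 G93A and missed the threshold (-0.43, adjusted p = 0.0644). *Atp1b1*, a subunit of the sodium pump, was at 7.40, 7.30 and 7.21 in WT and 6.92, 7.24 and 7.15 in SOD1 G93A (-0.19, adjusted p = 0.406). Of the 5 probe sets of *Atp1b1*, the dimmest passed, with -1.23 at signals of 3.15 to 4.71 (adjusted p = 0.00400 over all probe sets).

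Many neuronal genes are held silent in other cells by the repressor REST, which binds a long element with a left and a right part. RefSeq promoter windows of 300 bases (250 before and 50 after a transcript start, build GRCm38.p6) were at hand for 24 of the 32 members, 9 of them among the 14 that fell. Letters of the left part, CAGCACC on either strand, stood in a window of 4 of the 24 genes (*Tubb3*, *Kif5c*, *Ctnnd2* and *Prkar2b*) and of 8.97% of the 14452 measured genes with a window. Letters of the right part, GGACAGC on either strand, stood in 4 of the 24 (*Tubb3*, *Map2*, *Gad2* and *Gnai1*) and in 8.86% of those genes. These stretches do not overlap in the element. Of motifs common in promoters, searched in the same way, GGGCGG stood in 15 of the 24 genes and 57.3% of all, CCAAT in 10 and 42.0%, TATAAA in 5 and 11.5%, and GCGCATG in 2 and 6.30%. A gene counted if any of its windows held the letters, and the members have more windows per gene (37 for 24, against 18109 for 14452). By window, CAGCACC stood in 10.8% of the members' and 7.59% of all, and GGACAGC in 10.8% and 7.44%. GGGCGG stood in 51.4% and 52.3%, CCAAT in 45.9% and 37.4%, TATAAA in 13.5% and 9.77%, and GCGCATG in 5.41% and 5.41%. The 250 bases before the start are shown for *Ctnnd2* and *Gnai1*, which fell, and for *Tubb3*, which did not pass, as examples of genes with such letters before the start. They are written 5′ to 3′ on the strand of the gene, with the matching letters in capitals.
*Ctnnd2*, chr15:30172284-30172533, plus strand: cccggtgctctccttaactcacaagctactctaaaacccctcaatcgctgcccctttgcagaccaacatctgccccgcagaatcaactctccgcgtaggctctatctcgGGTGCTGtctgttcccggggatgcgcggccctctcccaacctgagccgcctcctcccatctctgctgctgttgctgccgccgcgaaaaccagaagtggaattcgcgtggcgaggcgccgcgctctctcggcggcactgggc
*Gnai1*, chr5:18360414-18360663, minus strand: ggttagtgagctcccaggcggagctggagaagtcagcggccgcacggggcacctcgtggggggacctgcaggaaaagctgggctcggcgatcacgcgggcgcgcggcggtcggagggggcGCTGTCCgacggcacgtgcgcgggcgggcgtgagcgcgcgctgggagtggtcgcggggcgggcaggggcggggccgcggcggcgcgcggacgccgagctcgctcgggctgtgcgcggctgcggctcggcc
*Tubb3*, chr8:123411303-123411552, plus strand: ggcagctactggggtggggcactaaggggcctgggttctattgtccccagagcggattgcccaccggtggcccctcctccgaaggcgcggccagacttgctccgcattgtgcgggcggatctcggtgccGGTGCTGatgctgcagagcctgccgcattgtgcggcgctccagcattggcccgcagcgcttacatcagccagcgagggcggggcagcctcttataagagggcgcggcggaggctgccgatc
The letters begin 141 bases before the start of *Ctnnd2*, 130 before that of *Gnai1* and 121 before that of *Tubb3*. They are short matches to part of an element, and were found in members that fell and in members that did not.

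Read by all their probe sets, the 32 genes have 78, of which 21 were lower and 1 higher at an adjusted p under 0.05 over all probe sets of the array, where 1.93% of all probe sets were lower and 2.71% higher. Some probe set was lower for 17 genes: besides 13 of the 14, these were *Stmn2*, *Rbfox3*, *Elavl2* and *Atp1b1*, and *Elavl3* was the one without such a set. Of the 14 genes, *Nefm* and *Nefh* have 1 probe set. In 4 of the other 12, *Nefl*, *Kif5c*, *Celf4* and *Gnai1*, a further set passed as lower, and in the remaining 8 it did not. Without suffixed probe sets, where a gene had others, 9 members were lower, and *Stmn3*, *Mapk10*, *Prkar2b* and *Gnai1* did not pass. *Celf4*, none of whose probe sets carries a suffix, did not pass either. Its difference was unchanged, and only the adjustment, run over other probe sets of other genes, moved its adjusted p.

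**Figure D3:**
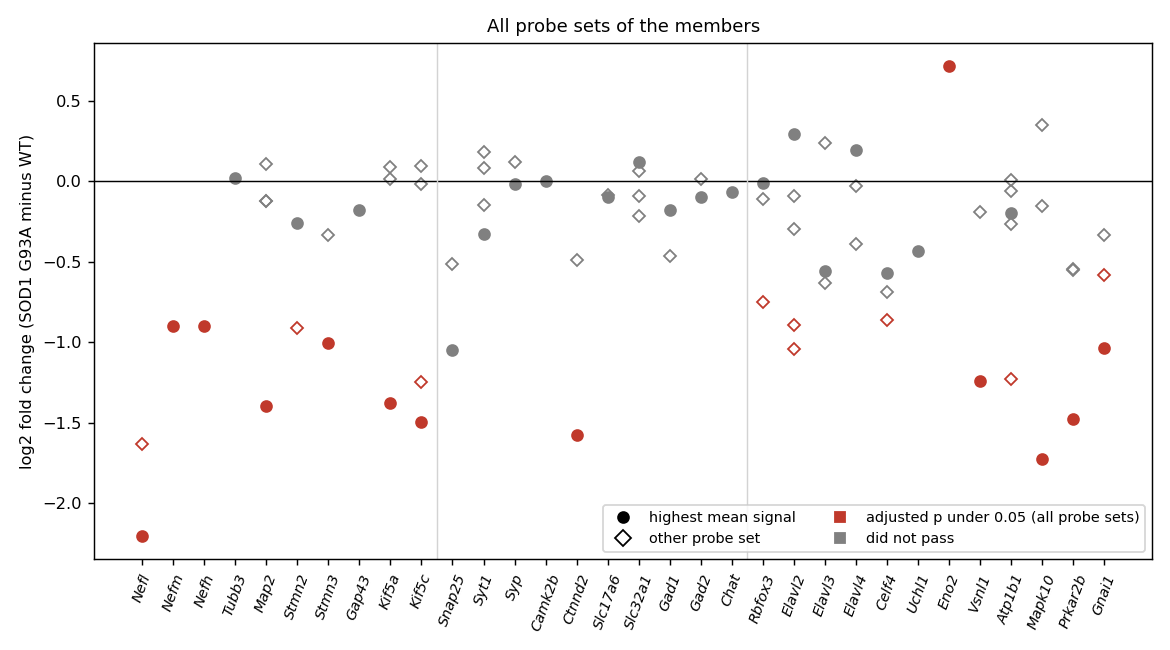
Log2 fold change (SOD1 G93A minus WT) of all 78 probe sets of the 32 genes, in the order axonal, synaptic and other, divided by vertical lines. Filled circles are the probe set of highest mean signal and open diamonds the other sets, and red marks an adjusted p under 0.05 over all probe sets of the array. Most genes have sets that did not pass, and 21 of the red points lie below 0.

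Leaving out 1 array at a time gave between 10 and 13 lower members, while between 0.566% (without SOD1 G93A replicate 3) and 2.96% (without WT replicate 1) of all genes were lower. Of the 14, 10 passed in all 6 such fits. Left out in turn, SOD1 G93A replicates 2 and 3 each left 3 lower genes among the 12 other members, against 6 with all arrays, and WT replicates 1, 2 and 3 each left 4. *Mapk10* was lost without SOD1 G93A replicate 2 (adjusted p = 0.0594) or 3 (adjusted p = 0.0527).

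The arrays were not alike within a genotype. Of the 14 lower genes, 10 had their highest WT signal on replicate 1, and 7 had their highest SOD1 G93A signal on replicate 1. In *Nefl*, *Kif5a*, *Ctnnd2*, *Elavl3*, *Mapk10* and *Gnai1*, replicate 1 was the highest and replicate 3 the lowest of the SOD1 G93A arrays. The same held for a measure of RNA length, the log2 signal at the 3′ end of *Gapdh* minus that at its 5′ end, which grows as labelled RNA gets shorter. It was 4.63, 4.28 and 3.47 in SOD1 G93A and 5.01, 4.79 and 4.87 in WT. The difference between the genotypes was -0.77, with p = 0.1 by an exact permutation test (two-sided), which 3 arrays against 3 cannot go below. For beta-actin it was -0.75 (p = 0.2 by the same exact test). With the *Gapdh* value as a covariate, 3 members, *Nefl* (-1.57, adjusted p = 0.0135), *Nefm* (-1.10, adjusted p = 0.0492) and *Kif5c* (-1.56, adjusted p = 0.0275), passed as lower, while 25 of all genes did. The median of the 32 was then -0.40.

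Markers of other cells that a dissociated cord holds were read beside the neuronal transcripts. Of 22 measured astrocyte markers 6 fell and 16 did not pass, beside 2.53% of all genes lower, with a median of -0.58. Their summed linear signal was 1801 to 2906 on the SOD1 G93A arrays and 3618 to 6769 on the WT arrays. The 6 were *Slc39a12* (-1.81, adjusted p = 0.00207), *Slc1a2* (-1.60, adjusted p = 0.0119), *Slc4a4* (-1.55, adjusted p = 0.0415), *Aldoc* (-1.33, adjusted p = 0.0237), *Slc1a3* (-0.65, adjusted p = 0.0133) and *Gjb6* (-0.60, adjusted p = 0.0274), among them both glutamate transporters of astrocytes in the list. *Aqp4*, a water channel of astrocytes, was at 7.15, 5.93 and 5.76 in WT and 5.89, 5.25 and 4.46 in SOD1 G93A (-1.08, adjusted p = 0.171), and *Gfap*, of astrocyte filaments, had 0.33 (adjusted p = 0.377). Of 22 measured oligodendrocyte markers 4 fell (*Mobp*, *Bcas1*, *Prr18* and *Mbp*) and 18 did not pass, with a median of -0.32, and their sum was 11609 to 12957 in SOD1 G93A and 19590.5 to 29156 in WT. *Mbp*, of myelin, read 12.38 ± 0.28 (SD, n = 3) in SOD1 G93A and 13.54 ± 0.56 (SD, n = 3) in WT on the log2 scale (-1.16, adjusted p = 0.0346). Signals of *Mbp* in WT reached 13.92, near the top of the arrays, where the highest signals were 14.51 to 14.59, so that the difference may be understated. Values made by RMA do not reach 0, and 2 of the astrocyte and 1 of the oligodendrocyte markers had a mean log2 signal below 5. The 17 measured microglia markers had a median of -0.025, with 3 higher, beside 4.09% of all genes, and a sum of 128279 to 139832 in SOD1 G93A against 120139 to 128962 in WT. The 3 were *Trem2* (1.28, adjusted p = 0.0141), *Fcrls* (1.07, adjusted p = 0.00675) and *Tyrobp* (0.52, adjusted p = 0.0212). Every SOD1 G93A array lay above every WT array for 6 of the 17, beside 16.6% of all genes. It lay below for 3, beside 10.9% of all genes.

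The summed signal of the 32 neuronal genes was 2003 to 2277 on the SOD1 G93A arrays and 3521 to 4178 on the WT arrays. Sums are carried by the brightest genes, and the order of the WT arrays depended on whether a sum or a median was taken. By the sum, WT replicate 1 was the highest for the neuronal genes and the astrocyte markers and the lowest for the oligodendrocyte markers. By the median log2 signal, WT replicate 2 was the highest for the neuronal genes, at 6.18, and WT replicate 1 for the astrocyte markers, at 7.14, and the oligodendrocyte markers, at 7.79. The part of other cells, of RNA length and of the arrays numbered 1 in the neuronal differences was not tested. Without both arrays numbered 1, 14 members were lower and 1 was higher, and their median was -0.41.

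**Figure D4:**
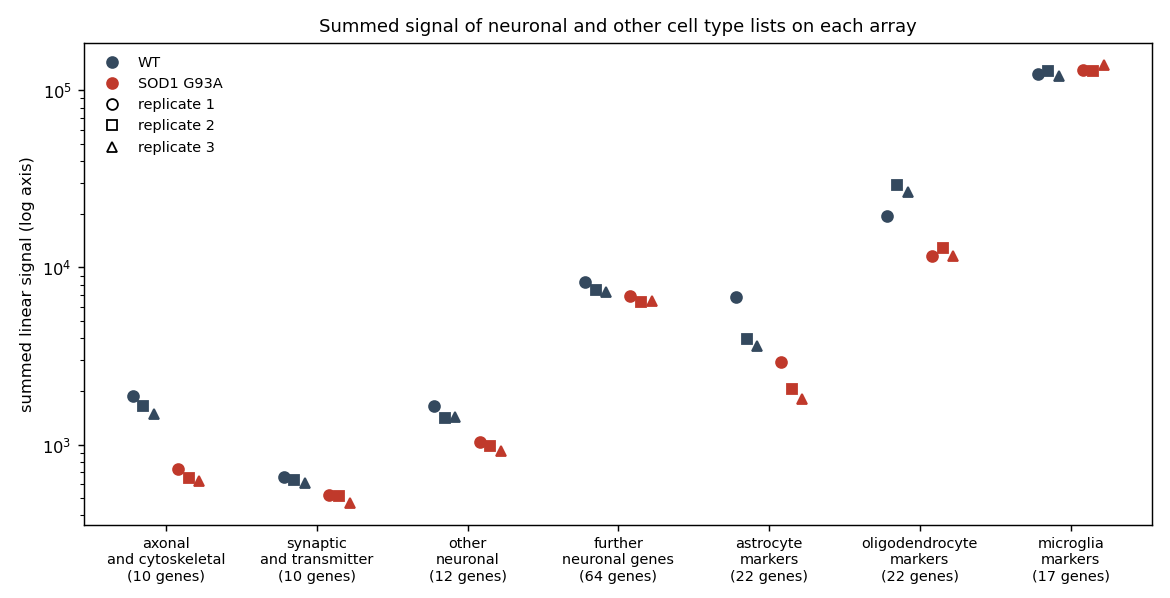
Summed linear signal of the genes in each list on each array, on a log axis, with WT in dark blue, SOD1 G93A in red and a marker shape for each replicate number. The sums of the 3 groups of neuronal members, and of the astrocyte and oligodendrocyte markers, are lower on every SOD1 G93A array than on any WT array, and those of the microglia markers lie between 120139 and 139832.

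A wider set of 72 neuronal genes outside the 32 was read in the same way, and 64 of them were measured. Of these 6 were lower and 58 did not pass, with a median log2 fold change of -0.098, beside 2.53% lower of all genes. All 6 had genotypes without overlap. *Ndrg4*, a gene of neurones and heart, was at 8.69, 8.51 and 8.42 in WT and 7.36, 7.47 and 7.46 in SOD1 G93A (-1.11, standard error 0.11, adjusted p = 0.00178). *Cplx1*, a complexin that holds SNARE complexes ready for release, was at 9.46, 9.49 and 9.08 in WT and 8.52, 8.23 and 8.13 in SOD1 G93A (-1.05, standard error 0.15, adjusted p = 0.00683). These were the brightest of the 6. *Rbfox1*, a splicing factor of neurones and muscle, had -1.03 (adjusted p = 0.0421), with WT replicate 1 at 7.05 and the other two WT arrays at 5.97 and 6.24. *Glrb*, the beta subunit of the glycine receptor, had -0.83 (adjusted p = 0.0181), *Syn2*, a synapsin of vesicles, had -0.74 (adjusted p = 0.00945), and *Peg3*, an imprinted zinc finger gene, had -0.53 (adjusted p = 0.0281).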

How the data were processed

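RNA of sorted CD11b-positive cells was hybridised to Affymetrix mouse GeneChips, 3 per genotype. The lumbar cord was digested with enzymes, myelin was spun off in sucrose, and the sort left out debris and dead cells. The authors deposited log2 signals, 1 for each probe set, made with RMA in Partek per the submitters' notes, whereas the study's methods name MAS 5.0. Amplification is 3′-primed, so RNA length can affect a signal. The study's methods give a double amplification of the RNA, and the labels a standard labelling.

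All 45037 probe sets other than 64 controls were fitted with limma 3.58.1 (lmFit, eBayes) in R 4.3.3, with genotype as the only term. Of these, 34945 have 1 gene symbol in the platform annotation, 932 several and 9160 none, and each of 18193 genes was read by its brightest such probe set over the 6 arrays. Intervals are limma's at 95%, unadjusted. The groups were matched by litter, but nothing says which litters went into each pool. Limma's p-values rest on the spread between these pools, with a variance that borrows from other probe sets. The members, the gene lists and the tests were chosen with earlier results of these data known. All members are named, and of the wider neuronal list those that passed without overlap. Of the member symbols none shares a probe set with another symbol in the table. Alternatives were the methods' t-test, eBayes with trend and robust, other probe sets per gene, a minimum signal of 5, adjustment over all probe sets, median-centred arrays, array weights, a replicate block, the *Gapdh* covariate, and arrays left out. Python 3.11.15 with pandas 2.3.3 and matplotlib 3.10.9 served for summaries and figures, and statmod 1.5.0 was loaded with limma.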

Additional observations from a re-analysis of the deposited data

How the results depend on the processing

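The count of 14 lower members was between 12 and 16 under 9 of the other settings run with all arrays or without both arrays numbered 1, and fell outside that range under 3. It was 9 without suffixed probe sets, where the other neuronal members gave 2, and 3 with the *Gapdh* covariate, where the axonal members gave 3, the synaptic and the other members 0, the further neuronal genes 1 and the count of higher members 0. With the methods' t-test no count of lower or higher genes was above 0 after Benjamini-Hochberg adjustment, among members, further genes or all genes, while 15 members were lower and 2 higher at an unadjusted p under 0.05. At the methods' thresholds 3 of the further neuronal genes were lower and 0 members higher. Synaptic members lower were 2 with array weights and without both arrays numbered 1. Further neuronal genes lower were 10 under either of these settings, and 1 was higher under each, as with the mean of all probe sets, the minimum signal of 5 and median-centred arrays, against 0 in the report (2 at an unadjusted p under 0.05). Of all genes 4.02% were lower with array weights and 4.6% without both arrays numbered 1. For these shifts the cause was not tested.

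Without 1 array at a time, lower members ranged from 10 to 13, the axonal from 6 to 7, the synaptic from 1 to 2 (2 without WT replicate 1), the other members from 3 to 5, and further neuronal genes from 3 to 6 (3 without SOD1 G93A replicate 2 or 3 or WT replicate 3). Higher members ranged from 0 to 1, with 0 without SOD1 G93A replicate 2 or 3 or WT replicate 1 or 3. The median of the members ranged from -0.42 to -0.29 and the *Gapdh* difference from -1.02 to -0.44.

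Replicate numbers are shared by the genotypes, but the deviations of same-numbered arrays from their group means correlated at 0.44, 0.24 and 0.041, and SOD1 G93A replicate 3 correlated best with WT replicate 2 (0.42), so the numbers were not taken to pair the arrays. With the replicate block 16 members were lower and 1 higher, beside 5.40% and 6.80% of all genes, *Snap25* (adjusted p = 0.00354) and *Uchl1* (adjusted p = 0.0416) being added. Synaptic members lower were then 2, and further neuronal genes 11 lower and 2 higher.

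The sign turned only in members that did not pass. With the mean of all probe sets *Syp* had 0.054, *Slc32a1* -0.032, *Elavl4* -0.073 and *Elavl2* -0.41, which then passed (adjusted p = 0.0245). With array weights *Tubb3* had -0.13 and *Syp* 0.14, and without both arrays numbered 1 *Tubb3* had -0.23, *Syp* 0.21 and *Chat* 0.012. With median-centred arrays *Syp* had 0.0043 and *Rbfox3* 0.010, with the *Gapdh* covariate *Slc17a6* had 0.048 and *Rbfox3* 0.11, and without suffixed probe sets *Atp1b1* had 0.012. Without 1 array at a time *Tubb3* ranged from -0.15 to 0.15, *Syp* from -0.20 to 0.17, *Camk2b* from -0.072 to 0.075 and *Rbfox3* from -0.069 to 0.045.

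The 3 arrays per genotype limit the precision, and 11 of the 32 genes read at or below the background reference on all 6 arrays. Of the 14 lower genes, 11 had a WT mean above that reference and 7 a SOD1 G93A mean above it.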
